A study of Rattus norvegicus with 4 samples.

Results

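Transcripts of 38 genes for plasma proteins of blood clotting, clot removal, and complement were followed in the livers of 4 rats, 1 for each state of inhalational anesthesia. The genes were chosen by symbol: 17 of coagulation, 2 of fibrinolysis, and 20 of complement, 39 in all. Of these, 38 were among the 16982 genes measured in every library, and *C5* was not analysed here. The wild-type male Wistar rats, bought at 6 weeks of age and kept from food for 2 hours, inhaled 4.5% sevoflurane or 6% desflurane for 6 hours. The respective control of each agent inhaled the same agent only until it lost consciousness, so that neither control was free of anesthetic. Each rat gave 1 RNA library from the left lateral lobe of the liver. With 1 library per condition, no difference has a replicate check, and no test was made. A gene was called upregulated or downregulated when the larger of its TPM values (transcript levels scaled for library size and transcript length) in the 6 hour library and the respective control exceeded 2 and the values differed by more than 2-fold. Smaller differences are given as higher or lower values, and differences between rats that have nothing to do with the agents cannot be told apart from those of the agents.

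Most plasma proteins of clotting and complement are made by hepatocytes. In coagulation, a series of proteases activates one another until thrombin, the active form of prothrombin, cleaves fibrinogen into fibrin, while plasmin later dissolves the clot. Complement is started by C1, by lectins that bind microbial sugars, or by the alternative pathway, all of which meet at C3 and end in the membrane attack complex. Many of these proteins, fibrinogen and C3 among them, are known as acute phase proteins, whose synthesis in the liver rises in inflammation.

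Aligned sequence was between 4.47 and 5.40 Gb per library, as derived from the ratio of FPKM to coverage. All 38 genes were higher than 2 TPM in every library. The lowest average coverage of a member was 74.2, for *C6* after 6 hours of sevoflurane, and the highest was 11997, for *C3* in the desflurane control. Medians of all genes were taken over genes higher than 2 TPM in both libraries compared. The median log2 ratio of the 6 hour library to its own control was 0.06 with sevoflurane and 0.12 with desflurane. Because the second value exceeds 0.1, the desflurane medians of the 3 classes are also given relative to it. The 12 hepatocyte marker genes were all present, with summed levels of 118205 TPM in the sevoflurane control, 112893 after sevoflurane, 111519 in the desflurane control, and 127693 after desflurane. Other cells of the liver also made part of these libraries. In bulk tissue, fewer cells of a type and less RNA per cell cannot be told apart.

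The genes described here took a considerable part of liver RNA, namely 4.42% of the annotated TPM in the sevoflurane control, 3.79% in the sevoflurane library, 4.50% in the desflurane control, and 4.48% in the desflurane library. The sevoflurane library, as the 6 hour library of that agent is called here, was thus the lowest of the 4. Coagulation genes accounted for 2.42%, 2.16%, 2.42%, and 2.55% in the same order, and complement genes for 1.65%, 1.36%, 1.72%, and 1.59%. *C3*, the central protein of complement, was the most abundant member with a mean rank of 14.5 among all genes, and was followed by the 3 fibrinogen chains at mean ranks of 24.2 (*Fgb*), 28.5 (*Fga*), and 29 (*Fgg*). The least abundant were *C6*, a part of the membrane attack complex, and *F7*, the factor that starts clotting together with tissue factor.

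**Figure D1:**
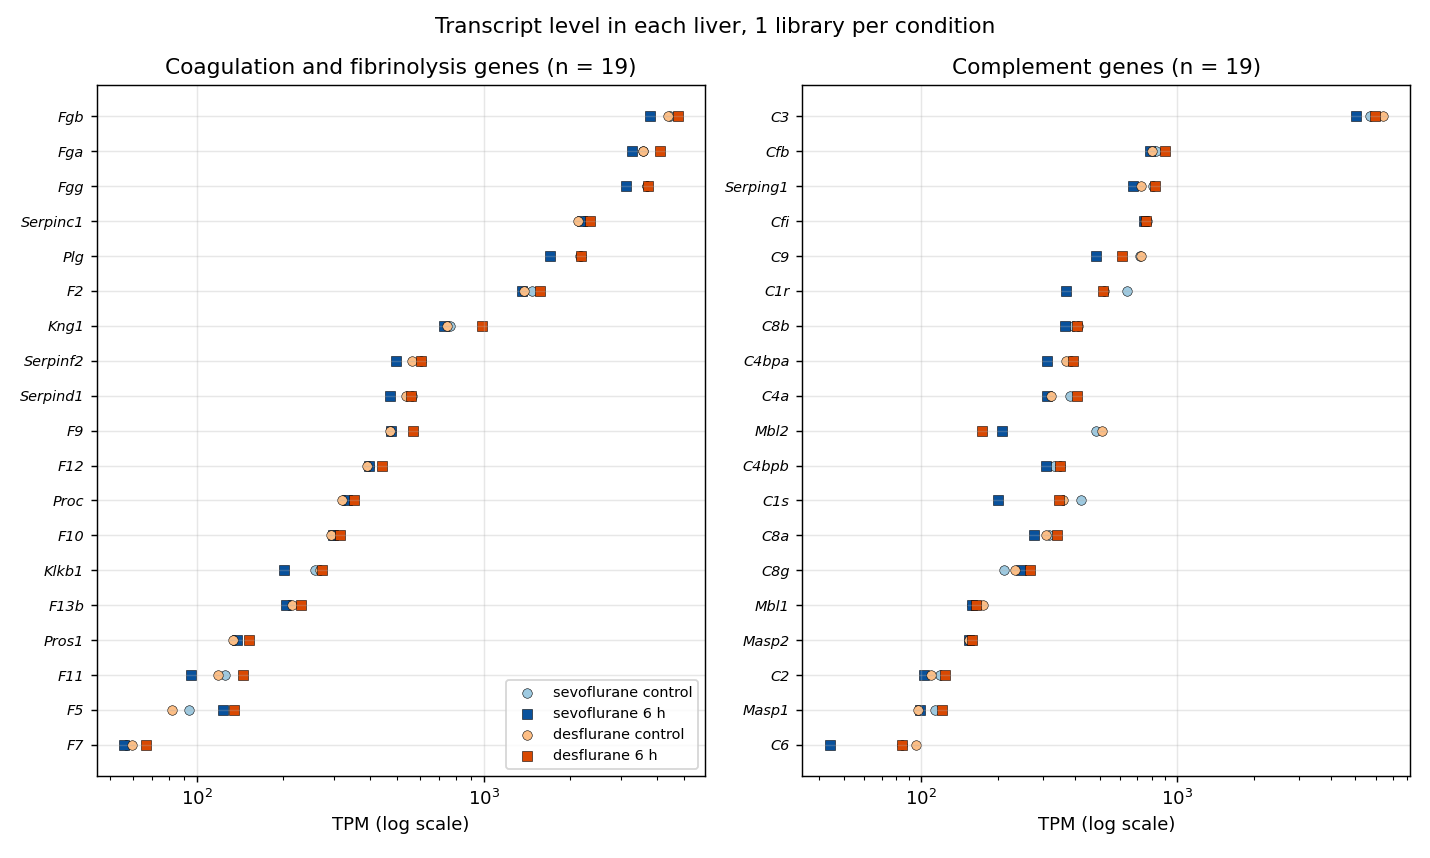
Level of each of the 38 genes in TPM (log axis) in the 4 libraries, with circles for controls and squares for 6 hours of anesthesia. *C1s*, *C6*, *C9*, *Plg*, and the fibrinogen chains are lowest in the sevoflurane 6 hour library, *F5* is higher in both 6 hour libraries than in both controls, and *Mbl2* is lower in both.

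The promoters of 5 members are shown because their genes carry the main observations: the 3 fibrinogen genes encode chains of 1 protein, and *C1r* and *C6* were among the genes lower after sevoflurane. Each is the 250 bases before the annotated start of the gene in RefSeq (GRCr8 build), written 5′ to 3′ on the strand of the gene. Capitals mark matches to letters of binding motifs of liver factors on either strand: GTTAAT (HNF1 site), TTGCNNAA (C/EBP), and CTGGGAA (IL-6 response element, the acute phase motif).
Fga promoter, chr2:170671919-170672168, plus strand: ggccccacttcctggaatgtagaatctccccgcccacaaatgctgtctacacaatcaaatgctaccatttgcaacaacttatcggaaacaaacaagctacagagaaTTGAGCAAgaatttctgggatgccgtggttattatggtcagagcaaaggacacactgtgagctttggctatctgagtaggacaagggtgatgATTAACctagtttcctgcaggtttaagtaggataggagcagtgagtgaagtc
Fgb promoter, chr2:170700876-170701125, minus strand: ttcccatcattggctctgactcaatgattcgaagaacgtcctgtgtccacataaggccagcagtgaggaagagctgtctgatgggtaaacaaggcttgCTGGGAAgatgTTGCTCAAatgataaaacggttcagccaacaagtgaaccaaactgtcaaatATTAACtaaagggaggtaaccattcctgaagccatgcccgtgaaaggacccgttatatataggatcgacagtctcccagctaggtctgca
Fgg promoter, chr2:170652833-170653082, plus strand: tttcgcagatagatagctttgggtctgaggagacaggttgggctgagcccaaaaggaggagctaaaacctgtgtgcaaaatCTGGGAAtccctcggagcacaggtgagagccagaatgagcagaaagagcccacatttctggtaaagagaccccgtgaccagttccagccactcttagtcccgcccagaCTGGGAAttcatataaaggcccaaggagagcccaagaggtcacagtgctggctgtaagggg
C1r promoter, chr4:159098763-159099012, plus strand: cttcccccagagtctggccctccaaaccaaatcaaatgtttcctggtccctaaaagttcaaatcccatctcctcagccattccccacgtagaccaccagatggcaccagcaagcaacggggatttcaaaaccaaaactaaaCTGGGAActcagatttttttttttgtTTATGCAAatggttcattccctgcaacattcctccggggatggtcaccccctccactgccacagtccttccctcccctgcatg
C6 promoter, chr2:55573383-55573632, plus strand: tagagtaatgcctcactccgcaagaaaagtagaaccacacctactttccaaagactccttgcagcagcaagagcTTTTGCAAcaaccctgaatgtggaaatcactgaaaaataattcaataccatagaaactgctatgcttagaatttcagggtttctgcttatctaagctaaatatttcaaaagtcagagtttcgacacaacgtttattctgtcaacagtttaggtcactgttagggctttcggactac

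Positions of the matches are counted back from the start. The *Fga* promoter had HNF1 letters at -52 and C/EBP letters at -144. The *Fgb* promoter held all 3 motifs, at -90, -141, and -152. That of *Fgg* held CTGGGAA at -169 and -61, *C1r* had C/EBP letters at -83 and CTGGGAA at -109, and *C6* had C/EBP letters at -176. RefSeq promoters were found for 31 of the 39 genes listed, *C5* included. GTTAAT was in 10 of the 31 (32.3%), compared with 6.49% of 27457 rat promoters of the same length. TTGCNNAA was in 12 (38.7%, compared with 9.21%), and CTGGGAA in 10 (32.3%, compared with 9.32%). Matches to the interferon-stimulated response element and to CAAAGTCC, an HNF4 motif, were in 0 of the 31, compared with 3.28% and 1.18% of all promoters. A match describes letters only and is no evidence of binding.

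After 6 hours of sevoflurane, *C1s* and *Mbl2* were downregulated, and 0 of the 38 genes were upregulated. This was 2 of 38 downregulated genes, read beside 3.3% of all genes tested (322 of 9754), and 2.23% of all genes were upregulated. After 6 hours of desflurane, *Mbl2* was the 1 downregulated gene (1.48% of all genes) and 0 were upregulated (2.79% of all genes). The *Mbl2* value rests on how its rows were built, as described with the lectins. Past 1.5-fold, the sevoflurane library was lower in *C1r*, *C1s*, *Mbl2*, and *C6* (8.08% of all genes), and the desflurane library was higher in *F5* (10.4% of all genes) and lower in *Mbl2* (4.25% of all genes). Most members therefore kept their level within 1.5-fold with both agents.

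**Figure D2:**
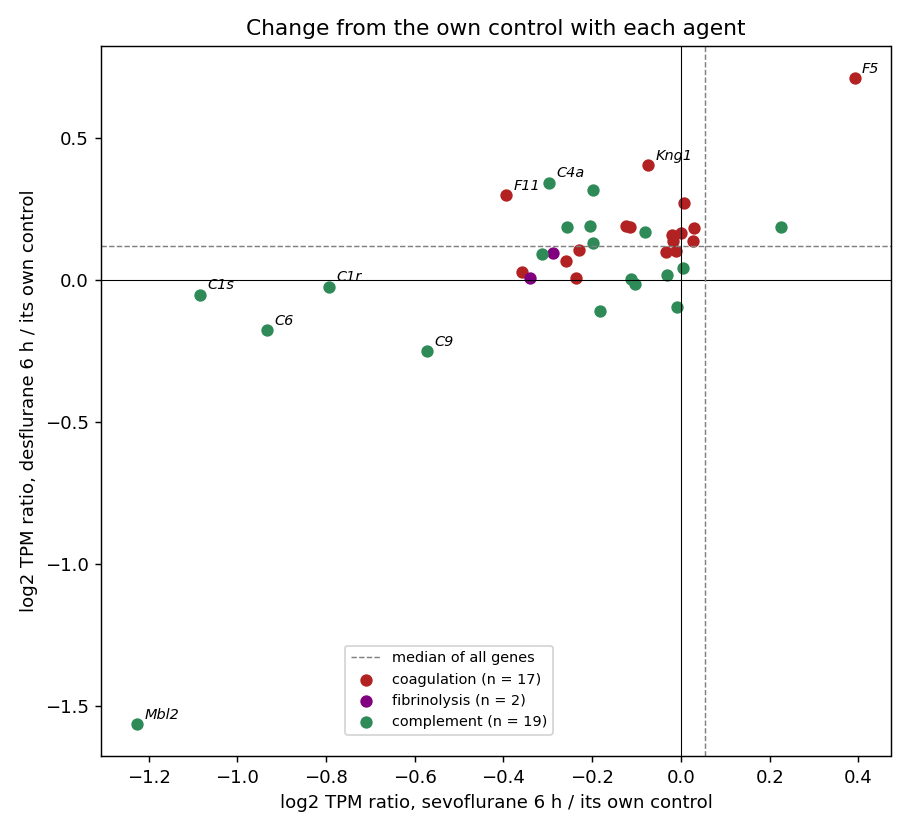
Log2 TPM ratio of each 6 hour library to its own control for the 38 genes, sevoflurane on the horizontal and desflurane on the vertical axis, with dashed lines at the median of all genes. *C1s*, *C6*, *C1r*, and *C9* lie far to the left at desflurane ratios between -0.25 and -0.02, *F5* is at the upper right, and *Mbl2* is at the lower left.

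Smaller differences lay on opposite sides with the 2 agents on the TPM scale. Of the 38 genes, 31 were lower than the own control after sevoflurane (43.5% of all genes) and 30 were higher after desflurane (66.6% of all genes). The median log2 ratio of the members was -0.15 with sevoflurane and 0.11 with desflurane. The desflurane value was close to the 0.12 of all genes, and relative to that median 18 members lay above and 20 below. Relative to the median of all genes with sevoflurane, 2 members lay above and 36 below. The count of higher members with desflurane changed with the scaling, from 30 on the TPM scale to 23 with FPKM, 18 with median-of-ratios scaling, and 8 with scaling to the hepatocyte markers. The count of lower members with sevoflurane was 31, 36, 36, and 25 in the same order.

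Coagulation genes differed little between the controls on the TPM scale. Between the 2 controls, 16 of 17 lay within 0.15 on the log2 scale by TPM, compared with 12 of the 19 complement genes. The share of all genes was 48.2%, and that of genes higher than 50 TPM was 57%. With FPKM, 10 of all 38 members lay that close. Between sevoflurane and its own control, 11 coagulation genes and 6 complement genes did so on the TPM scale. For the 6 hour libraries the share of all genes was not calculated. With desflurane, 8 of 17 coagulation genes and 10 of 19 complement genes lay that close to their own control. Their median log2 ratio was -0.03 with sevoflurane and 0.16 with desflurane, with 12 of 17 lower after sevoflurane and 17 of 17 higher after desflurane. Relative to the median of all genes, the medians were -0.09 and 0.04, with 11 of 17 genes above it with desflurane. The count of 17 stands beside 66.6% of all genes, and it became 14 with FPKM, 11 with median-of-ratios scaling, and 5 with scaling to the hepatocyte markers. The hepatocyte scaling also turned the sign of both medians, to 0.01 with sevoflurane and -0.03 with desflurane. With the 2 controls exchanged, medians of -0.04 and 0.13 were obtained.

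Prothrombin (*F2*) was among the most abundant clotting transcripts, at 1468 TPM in the sevoflurane control, 1356 after sevoflurane, 1378 in the desflurane control, and 1571 after desflurane. These were log2 ratios of -0.11 and 0.19. *F9* (the factor absent in hemophilia B) was at 474, 476, 471, and 568 TPM in the same order. By TPM only the desflurane library stood apart, at a log2 ratio of 0.27 to its own control, which went down to 0.08 under other scalings. *F7*, *F10*, and *F13b*, the carrier subunit of the factor that cross-links fibrin, differed from their own control by log2 ratios between -0.03 and -0.01 with sevoflurane and between 0.10 and 0.16 with desflurane.

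Factor V, the cofactor with which factor Xa makes thrombin, was the member with the highest ratio for both agents. The *F5* transcript was at 94.1 TPM in the sevoflurane control, 123 after sevoflurane, 82.1 in the desflurane control, and 135 after desflurane. Both 6 hour libraries were above both controls. The 6 hour level was 1.31-fold that of the own control with sevoflurane and 1.64-fold with desflurane, and the log2 ratios to the control of the other agent were 0.59 and 0.51. The direction was the same under each scaling, with log2 ratios to the own control between 0.34 and 0.44 for sevoflurane and between 0.52 and 0.71 for desflurane. The 2 controls differed by 1.15-fold in this gene.

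Fibrinogen, the precursor of the fibrin clot, is a hexamer with a pair of each of its 3 chains. *Fga* was at 3591 TPM in the sevoflurane control, 3295 after sevoflurane, 3588 in the desflurane control, and 4101 after desflurane. *Fgb* was at 4457, 3803, 4398, and 4734 TPM, and *Fgg* at 3693, 3134, 3717, and 3735 TPM in the same order. For each chain, the controls were within 0.02 of each other on the log2 scale and the sevoflurane library was the lowest. Their sum was 11741 TPM, 10232 TPM, 11703 TPM, and 12570 TPM.

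The proportion of the chains moved little. *Fga* made up 30.6% of the fibrinogen TPM in the sevoflurane control, 32.2% after sevoflurane, 30.7% in the desflurane control, and 32.6% after desflurane. *Fgb* made up 38.0%, 37.2%, 37.6%, and 37.7%. *Fgg*, whose gene lies 3.05 kb from *Fga* on chromosome 2 (rn6), made up 31.5%, 30.6%, 31.8%, and 29.7%. Both 6 hour libraries thus had a higher share of *Fga* and a lower share of *Fgg* than both controls, and these shares do not depend on the scaling. The log2 ratio of *Fgg* with desflurane was 0.01, the lowest of the procoagulant factors, and those of *Fgb* and *Fgg* with sevoflurane were -0.23 and -0.24. With desflurane, the ratio of *Fgb* turned from 0.11 to -0.08 under the hepatocyte scaling, and that of *Fgg* from 0.01 to -0.18.

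The contact system starts clotting on negatively charged surfaces and releases bradykinin from kininogen. Its zymogens factor XI and prekallikrein, close relatives encoded 4.05 kb apart on chromosome 16 (rn6), were the 2 coagulation genes with the lowest sevoflurane ratios. *F11* was at 126 TPM in the sevoflurane control, 95.8 after sevoflurane, 118 in the desflurane control, and 145 after desflurane. The sevoflurane library was 1.31-fold lower than its own control. *Klkb1* was at 257, 201, 268, and 274 TPM in the same order, with a log2 ratio of -0.36 for sevoflurane and 0.03 for desflurane. For both genes the sevoflurane library was below both controls, and under each scaling the log2 ratio to the own control was -0.31 or lower.

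*F12*, the factor that autoactivates on surfaces, was at 399, 399, 393, and 441 TPM, the same level in 3 of the 4 libraries. *Kng1*, which encodes kininogen, was at 766 TPM in the sevoflurane control, 728 after sevoflurane, 746 in the desflurane control, and 988 after desflurane. Only the desflurane library stood apart, at 1.32-fold its own control and a log2 ratio of 0.37 to the control of the other agent. The annotated span of *Kng1* shares 22792 bp on the same strand with that of *Kng2*, a near-identical relative, so that the split of reads between them is uncertain. *Kng2* was at 698, 664, 681, and 901 TPM, which is not an independent observation given this overlap.

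Apart from *Serpind1* after sevoflurane, the anticoagulants stayed close to their controls. *Serpinc1*, which encodes antithrombin, was at 2234 TPM in the sevoflurane control, 2207 after sevoflurane, 2138 in the desflurane control, and 2351 after desflurane. *Proc* and *Pros1*, which encode protein C and its cofactor protein S, had log2 ratios of 0.03 each with sevoflurane, and of 0.14 and 0.18 with desflurane. *Pros1* was at 135, 138, 134, and 152 TPM, the highest ratio of this role for both agents. *Serpind1*, which encodes heparin cofactor II, was at 563, 471, 535, and 560 TPM. Its log2 ratios of -0.26 and 0.07 were the lowest of the 4 genes. The *Serpind1* span lies within that of *Pi4ka* on the opposite strand.

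Of fibrinolysis, the zymogen of plasmin and its main inhibitor were both lower after sevoflurane. *Plg* was at 2156 TPM in the sevoflurane control, 1703 after sevoflurane, 2176 in the desflurane control, and 2186 after desflurane. The sevoflurane library was 1.27-fold lower than its own control and the other 3 libraries lay within 0.02 of each other on the log2 scale. *Serpinf2*, which encodes the plasmin inhibitor, was at 606, 496, 563, and 602 TPM, with log2 ratios of -0.29 and 0.10. The median log2 ratio of the pair was -0.31 with sevoflurane and 0.05 with desflurane, which were -0.37 and -0.07 relative to the median of all genes. The first had the same sign under each scaling and with either control, whereas the second became -0.03 with FPKM and -0.14 with scaling to the hepatocyte markers.

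The single genes with the largest differences after sevoflurane were complement genes. Of 19 genes, 17 were lower after sevoflurane with a median log2 ratio of -0.20, and 11 were higher after desflurane with a median of 0.02. Relative to the median of all genes these were -0.25 and -0.10. The sevoflurane median was between -0.25 and -0.15 over the alternatives, whereas the desflurane median was between -0.17 and 0.05 and so had no fixed sign. The 8 genes of the classical and lectin pathways had medians of -0.25 and 0.01, the 5 of the terminal pathway -0.20 and -0.01, and the 4 inhibitors -0.19 and 0.06.

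C1r and C1s are the serine proteases of the C1 complex, the starter of the classical pathway, and their genes lie 6.77 kb apart on opposite strands of chromosome 4 (rn6). *C1s* was at 423 TPM in the sevoflurane control, 199 after sevoflurane, 360 in the desflurane control, and 348 after desflurane. The sevoflurane library was the lowest, 2.12-fold lower than its own control and 1.80-fold lower than the desflurane control. *C1r* was at 640, 370, 521, and 513 TPM in the same order. Here the sevoflurane library was 1.73-fold and 1.41-fold lower than the same controls.

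The controls also differed in both genes, since *C1r* had the largest difference of all members between them, a log2 ratio of -0.30 for the desflurane control to the sevoflurane control. With desflurane, the log2 ratio to the own control was -0.05 for *C1s* and -0.02 for *C1r*. The ratio of *C1r* to *C1s* TPM was 1.51 and 1.45 in the sevoflurane and desflurane controls, 1.85 after sevoflurane, and 1.48 after desflurane. Under each scaling *C1s* was between 2.05-fold and 2.20-fold lower after sevoflurane than in its own control, but against the desflurane control it did not pass 2-fold.

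*C2* and *C4a* encode the next proteins of the pathway. *C2* was at 118, 102, 109, and 124 TPM in the sevoflurane control, after sevoflurane, in the desflurane control, and after desflurane. *C4a* was at 381, 310, 322, and 409 TPM in the same order. It was lowest after sevoflurane and highest after desflurane, with log2 ratios of -0.30 and 0.34 to the own controls. The *C4a* row shares 14408 bp on the same strand with *C4b*, a near-identical copy at 70.0, 56.1, 61.6, and 75.7 TPM, and the split between the copies is uncertain. The row also spans other genes, 15 in all with *C4b* and 6 of them on the same strand, among them *Rnf5* at 61.5 TPM in the sevoflurane control, and the value of *C4a* is therefore uncertain in itself.

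The lectin pathway begins with mannose-binding lectins and their proteases. *Masp1* was at 113, 98.8, 97.0, and 121 TPM in the sevoflurane control, after sevoflurane, in the desflurane control, and after desflurane, and *Masp2* at 154, 154, 153, and 158 TPM. *Mbl1* was at 159, 158, 175, and 164 TPM. Neither the proteases nor *Mbl1* differed from their own control by more than 0.32 on the log2 scale.

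*Mbl2*, the second lectin gene, was the only member given as several annotated rows, and its call depends on them. Both controls had 2 rows on the plus strand of chromosome 1 (rn6), one at chr1:248436160-248441053 and one at chr1:248724461-248729353. Both 6 hour libraries had 1 row of 293194 bp that reached from the start of the first to the end of the second. Summed by symbol, the level was 483 TPM in the sevoflurane control, 207 after sevoflurane, 511 in the desflurane control, and 173 after desflurane. These values made *Mbl2* downregulated by both agents.

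Row by row, the difference was smaller. The first row was at 255 and 267 TPM in the sevoflurane and desflurane controls, and the second at 229 and 244 TPM. The single row of the 6 hour library was 1.23-fold lower than the higher row of its control with sevoflurane and 1.54-fold lower with desflurane, and neither passed 2-fold. The rows that StringTie assembled kept the 2 places apart in all 4 libraries. At the first, they were at 189 TPM in the sevoflurane control, 155 after sevoflurane, 174 in the desflurane control, and 138 after desflurane. At the second, they were at 180, 147, 88.3, and 126 TPM.

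By the assembled rows, sevoflurane was 1.22-fold lower at both places, and desflurane was 1.26-fold lower at the first and 1.43-fold higher at the second. These rows were not built alike. At the second place the row spanned 12980 bp in the desflurane control and 8349 bp after desflurane. They also stand beside the annotated rows of the same libraries, and so are not a measure of the whole gene. The number of rows differed between libraries in 88 symbols. Apart from *Mbl2*, 35 symbols higher than 1 TPM had 1 row in some libraries and 2 in others, whichever the agent or state. Their single row, averaged over libraries, lay between -1.11 and 0.22 of the summed rows on the log2 scale, with a median of -0.37. Relative to the higher of the 2 rows, the median was 0.49. For *Mbl2*, the log2 ratios to the summed rows of the own control were -1.23 with sevoflurane and -1.56 with desflurane, outside that range. These are ratios of single libraries and not averages, so the comparison is a loose one. The downregulation of *Mbl2* was therefore seen with summed rows and not with the higher single row. The assembled rows cannot decide it, because they differ in span between libraries.

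**Figure D3:**
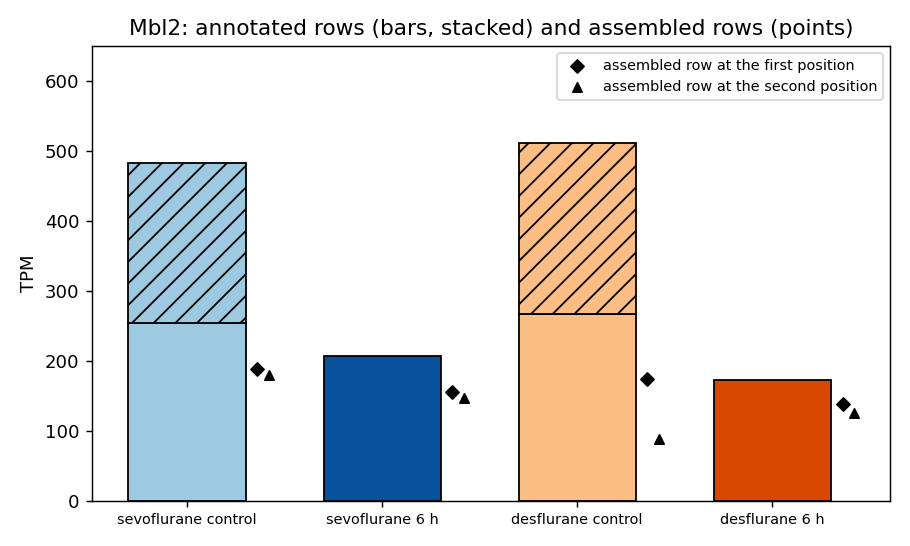
TPM of *Mbl2* in each library, with annotated rows as stacked bars and assembled rows at the 2 places as points. The controls have 2 annotated rows each and the 6 hour libraries 1, while the assembled rows range from 88.3 to 189 TPM.

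C3 is cleaved by all pathways, and factor B forms the alternative convertase with it. *C3* was at 5703 TPM in the sevoflurane control, 5025 after sevoflurane, 6407 in the desflurane control, and 5945 after desflurane. Sevoflurane was the lowest, with a log2 ratio of -0.18 to its own control and -0.35 to the desflurane control, whereas desflurane lay between the controls. *Cfb* was at 833, 788, 803, and 903 TPM, with log2 ratios of -0.08 and 0.17.

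The terminal proteins assemble the membrane attack complex, and *C6* and *C9* of this pathway were lower after sevoflurane. *C6* was at 83.8 TPM in the sevoflurane control, 43.9 after sevoflurane, 95.4 in the desflurane control, and 84.5 after desflurane. The sevoflurane library was 1.91-fold lower than its own control and 2.18-fold lower than the desflurane control. The other 3 libraries lay between 83.8 and 95.4 TPM, with a log2 ratio of 0.19 for the desflurane control to the sevoflurane control. Under each scaling, the sevoflurane library was between 1.85-fold and 1.98-fold lower than its own control. *C9*, the subunit that forms the ring of the pore, was at 717, 482, 724, and 608 TPM in the same order.

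Both 6 hour libraries were below both controls in *C9*, by 1.49-fold for sevoflurane and by a log2 ratio of -0.25 for desflurane to the own controls. The 3 genes of C8 did not move as one. *C8a* was at 317, 277, 309, and 339 TPM, *C8b* at 392, 365, 409, and 406 TPM, and *C8g*, which encodes the lipocalin-like chain, at 211, 247, 233, and 266 TPM. *C8g* was higher in both 6 hour libraries than in both controls and had the highest ratio of this role, 0.23 with sevoflurane and 0.19 with desflurane on the log2 scale, although the latter was 0.00 under the hepatocyte scaling.

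Complement is held in check by C1 inhibitor, C4b-binding protein, and factor I. *Serping1*, which encodes C1 inhibitor, was at 809 TPM in the sevoflurane control, 677 after sevoflurane, 724 in the desflurane control, and 824 after desflurane. *C4bpa* was at 387, 312, 367, and 391 TPM and *C4bpb* at 332, 307, 349, and 350 TPM, so that the alpha chain had the lower sevoflurane ratio, -0.31 compared with -0.11. *Cfi* was at 762, 745, 751, and 761 TPM, nearly the same in all 4 libraries. Of these 4 genes, 0 were called with either agent.

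Both controls had inhaled an agent for a short time only, and each 6 hour library was therefore also set against the other control. On the TPM scale, 30 of 38 genes lay within 0.15 of each other in the controls on the log2 scale (48.2% of all genes, and 57% of genes higher than 50 TPM), and 0 differed by more than 1.5-fold, compared with 3.82% of all genes higher and 4.12% lower in the desflurane control. With FPKM, 10 of 38 lay within 0.15. The log2 ratios between them ran from -0.30 (*C1r*) to 0.19 (*C6*). Sevoflurane was below both controls in 28 of 38 genes on the TPM scale (32% of all genes), in 18 with FPKM, in 36 with median-of-ratios scaling, and in 24 with scaling to the hepatocyte markers. By more than 1.5-fold it was below both in *C1s*, *Mbl2*, and *C6* (4.24% of all genes).

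Desflurane was above both controls in 27 of 38 genes on the TPM scale (53.7% of all genes), but in 11 with median-of-ratios scaling, 5 with scaling to the hepatocyte markers, and 4 with FPKM. By more than 1.5-fold on the TPM scale it was above both in 0 (5.37% of all genes). It was below both by more than 1.5-fold in *Mbl2* (1.92% of all genes). With the 2 controls exchanged and past 2-fold, *Mbl2* and *C6* were lower after sevoflurane (2.59% of all genes) and *Mbl2* after desflurane (1.58% of all genes). All of these counts use the same 2 controls and are not independent of each other.

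**Figure D4:**
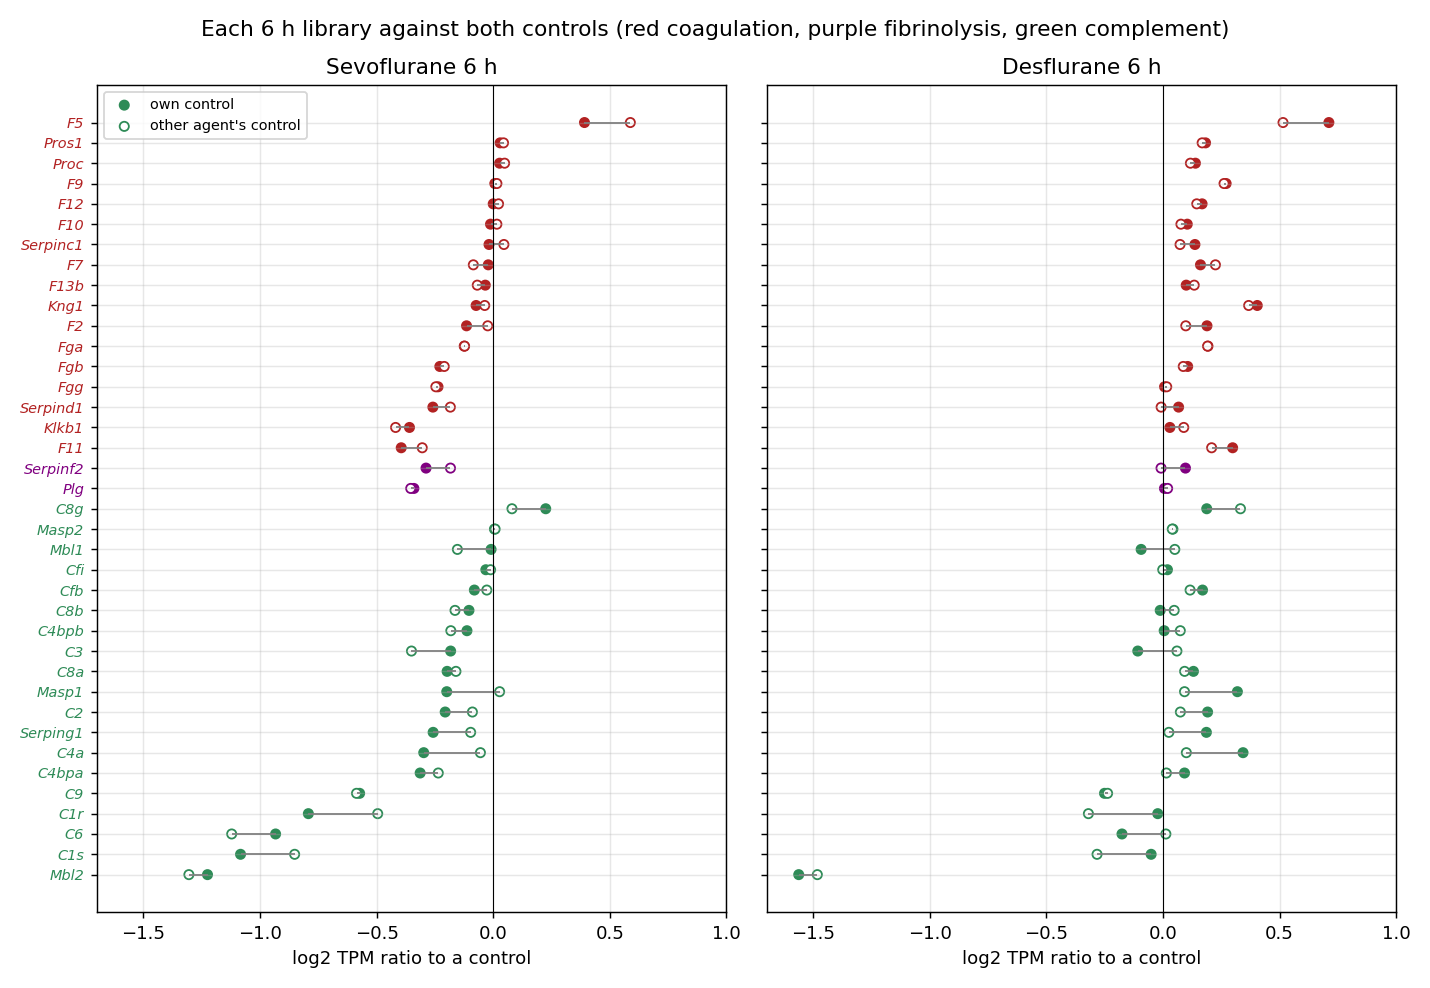
Log2 TPM ratio of each 6 hour library to its own control and to the control of the other agent for the 38 genes, in a panel for each agent. *C1s* and *C6* lie at -0.85 or lower against both controls after sevoflurane, and *F5* at 0.39 or higher against both controls with either agent.

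On the TPM scale, both 6 hour libraries lay to the same side of both controls in 11 genes, and the number depended on the scaling. Both 6 hour libraries were above both controls in *F5*, *F9*, *F12*, *Proc*, *Pros1*, *Masp2*, and *C8g* (7 of 38, compared with 33.3% of all genes), and below both in *C1r*, *C1s*, *Mbl2*, and *C9* (4 of 38, compared with 13.3% of all genes). With FPKM and with median-of-ratios scaling, *F5* and *C8g* were above both controls, and with scaling to the hepatocyte markers *F5* and *F9* were. The 4 genes below both controls were below them under each of these scalings, but other members joined them, which made 13 with FPKM, 19 with median-of-ratios scaling, and 19 with scaling to the hepatocyte markers. Sevoflurane was below and desflurane above both controls in 17 genes on the TPM scale (11.2% of all genes). This number was 9 with median-of-ratios scaling, 3 with scaling to the hepatocyte markers (*Fga*, *F11*, and *Kng1*), and 0 with FPKM, and *Klkb1*, *Plg*, and *Fgg*, which were among the 17, were then below both controls with both agents. The opposite position of the agents is therefore bound to the TPM scale for most members.

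The 6 hour libraries of the agents were compared directly. Desflurane was higher than sevoflurane in 37 of 38 genes on the TPM scale (58.6% of all genes), with a median log2 ratio of 0.25 beside 0.06 for all genes. *Mbl2* was the exception. The count was 35 with median-of-ratios scaling, 25 with scaling to the hepatocyte markers, and 23 with FPKM. Past 1.5-fold, *C6* was 1.93-fold, *C1s* 1.74-fold, and *F11* 1.52-fold higher after desflurane than after sevoflurane (8.98% of all genes), and *C6* and *C1s* were at least 1.67-fold and 1.51-fold higher under each scaling, whereas *F11* was 1.32-fold higher at its lowest. The agents were given at different concentrations, 4.5% and 6%, so that this is a comparison of those 2 rats and not of equal doses.

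Other genes of the pathways gave few calls. Of 17 other coagulation genes, 15 were measured, and *Serpina5*, which encodes protein C inhibitor, was the 1 called gene, at 2.58, 3.83, 2.33, and 5.62 TPM and 2.42-fold higher after desflurane. The most abundant was *Serpina1*, the antitrypsin gene, at 8889, 9489, 8529, and 9146 TPM. The medians of the 14 genes higher than 2 TPM on average were 0.04 with sevoflurane and 0.17 with desflurane on the log2 scale. The 8 other fibrinolysis genes had 0 calls, and the 5 higher than 2 TPM on average had medians of -0.22 and 0.28, or of -0.13 and 0.02 with the controls exchanged. *Cpb2*, which encodes a carboxypeptidase that protects fibrin, was the most abundant at 532, 431, 534, and 540 TPM, lowest after sevoflurane like *Plg*. Of 25 other complement genes, 23 were measured with 0 calls. Among the 19 higher than 2 TPM on average, 17 were lower after sevoflurane, with a median of -0.31, and the desflurane median was 0.15. With the 2 controls exchanged, 14 of the 19 were lower after sevoflurane and the medians were -0.09 and -0.01. *Vtn*, which encodes vitronectin, was the most abundant at 3876, 3722, 3741, and 3718 TPM.

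Genes on which the synthesis of these proteins depends were also looked at. The 6 genes of the vitamin K cycle and of factor secretion had 0 calls, with medians of 0.03 for sevoflurane and 0.24 for desflurane that became 0.28 and 0.01 with the controls exchanged, and *Vkorc1*, the target of warfarin, was at 167, 166, 170, and 167 TPM. Of 13 hepatocyte transcription factors, *Onecut1* was upregulated by sevoflurane and *Foxa2* downregulated. *Onecut1* was at 15.2 TPM in the sevoflurane control, 33.9 after sevoflurane, 61.2 in the desflurane control, and 41.9 after desflurane. *Foxa2* was at 30.5, 12.7, 44.5, and 22.9 TPM. The controls differed for *Onecut1* by more than each agent from its own control. *Hnf4a* was the most abundant, at 246, 226, 199, and 216 TPM. Of 11 genes listed as acute phase comparators, 0 were called, with medians of -0.04 and 0.16 (0.01 and 0.14 with the controls exchanged). The list includes *Alb* and *Ttr*, and its medians are not a measure of an acute phase response. *Alb*, the albumin gene, was at 83368, 79111, 77519, and 92912 TPM. In the hepatocyte marker list, *Apoa2* was downregulated by sevoflurane, at 1644, 674, 1288, and 1282 TPM.

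The marker lists of other cells did not all move alike after sevoflurane. All 11 Kupffer cell markers, which include the C1q genes that complete the C1 complex, were lower after sevoflurane than in both controls, with median log2 ratios of -0.66 and -0.33. Their summed level was 809 TPM in the sevoflurane control, 485 after sevoflurane, 641 in the desflurane control, and 757 after desflurane, and *Marco*, *Csf1r*, *Adgre1*, and *Cd5l* were downregulated. The summed level of 5 leukocyte markers was 79.7, 39.2, 56.1, and 39.3 TPM, of which *Lyz2* made the largest part at 54.6, 30.1, 37.5, and 21.6 TPM. *Ptprc*, which encodes the leukocyte antigen CD45, was at 13.7, 4.11, 9.24, and 10.9 TPM and so was lower after sevoflurane but not after desflurane. The summed level of 7 pancreatic acinar markers was 51.8, 18.6, 15.6, and 15.9 TPM, high in the sevoflurane control, and *Pnlip*, *Prss1*, and *Ctrb1* were at 0 in the other 3 libraries. Sinusoidal endothelial markers summed to 276, 266, 266, and 301 TPM, and stellate cell markers to 315, 321, 336, and 339 TPM. Cholangiocyte and platelet markers summed to no more than 21.0 and 6.71 TPM in any library. After sevoflurane, *C1s* was 2.12-fold lower than the sevoflurane control and 1.80-fold lower than the desflurane control. For *C6* these values were 1.91-fold and 2.18-fold. The part of the other cells in the levels of the members was not tested.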

How the data were processed

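Liver RNA of 4 rats was sequenced, and groups were taken from the sample labels. The authors trimmed reads with sickle, mapped them to rn6 with HISAT2, sorted them with SAMtools, and ran StringTie with the rn6 refGene annotation, without pooling. The deposited tables give average coverage per base (a signal not normalized for library size). FPKM values were deposited beside it and are normalized for library size and gene length by StringTie. The deposited TPM values are a signal that StringTie scaled over the assembled rows, so that annotated rows add up to between 779824 and 813454.

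Annotated rows longer than 200 bp were used, and the rows of a symbol were added up. Assembled rows were used for *Mbl2* alone. Ratios were calculated without a pseudocount, and the calling rule was a TPM value higher than 2 in the higher state and a difference of more than 2-fold. Aligned sequence was derived from the ratio of FPKM to coverage. Read counts were not used here, and counting error is therefore unknown. Shares of all genes refer to genes higher than 2 TPM in either library compared, or in any of the 4 where all 4 were compared. Whether StringTie used strand is not given in the sources used here.

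Members and lists were chosen with earlier results of these data known. Values are given for every member or its range, with the highest and lowest ratio of each role, the most abundant members, and those past 2-fold. In the wider lists, called genes and the most abundant gene are named; marker lists are given by their sums, and their named genes were chosen after their values were seen. Alternatives were FPKM, median-of-ratios scaling over genes higher than 2 TPM in all 4 libraries, scaling to 12 hepatocyte markers, the other control, the mean of the controls, a pseudocount of 1, other TPM and fold limits, the highest row of a symbol, and no length filter. The mean of rows and the removal of *Mbl2* were added after seeing the data. Promoters came from RefSeq (GRCr8) and coordinates of genes from the deposited tables (rn6). Calculations used Python 3.11.15, numpy 2.4.6, pandas 2.3.3, and matplotlib 3.10.9, and the calls were tested on simulated data.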

Additional observations from a re-analysis of the deposited data

Results flagged for a closer look

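The medians of each class lay on opposite sides of 0 with the 2 agents on the TPM scale. The median log2 ratio to the own control was -0.03 with sevoflurane and 0.16 with desflurane for coagulation, -0.31 and 0.05 for fibrinolysis, and -0.20 and 0.02 for complement. The difference was not tested, since each condition has 1 library. Median log2 ratios of all genes were 0.06 and 0.12, and the signs of the desflurane medians depend on the scaling. So does that of the sevoflurane coagulation median, which became 0.01 with scaling to the hepatocyte markers.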

How the results depend on the processing

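Of 126 values recomputed under alternatives, 109 stayed close to the value reported and 17 moved. Many of the 109 could not have moved. No member was lower than 43.9 TPM in any library, so TPM limits of 1 and 10 could not alter a call. Only *Mbl2* had several rows, so the handling of rows could not alter the coagulation and fibrinolysis medians. A median was counted as moved when it differed by more than 0.149, the median absolute log2 difference between the controls over all genes, and a count when it differed by more than 1.5-fold. Changes of sign below that size counted as close, as when the desflurane complement median of 0.02 became -0.11 with median-of-ratios scaling. Genes downregulated by sevoflurane went from 2 to 1 with the highest row of a symbol, with the mean of its rows, and without *Mbl2*, and to 4 with a limit of 1.5-fold. Genes downregulated by desflurane went from 1 to 0 with the same 3 changes of rows, and those upregulated by desflurane from 0 to 1 with a limit of 1.5-fold. The cause lies in the rows of *Mbl2* and in the limit itself. With scaling to the hepatocyte markers, the desflurane medians became -0.028 for coagulation, -0.14 for fibrinolysis, and -0.17 for complement. The number of genes above both controls in both 6 hour libraries went from 7 to 2 with FPKM, with median-of-ratios scaling, and with scaling to the hepatocyte markers. The number below both went from 4 to 13, 19, and 19. These scalings shift whole libraries against each other, and why the scales differ was not tested. Over all alternatives, the sevoflurane medians were between -0.09 and 0.01 for coagulation, -0.37 and -0.27 for fibrinolysis, and -0.25 and -0.15 for complement.

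No paired analysis was possible because each group has 1 library. Leaving out a library would leave a condition empty, and the spread between rats of one condition is unknown. All members had an average coverage of at least 74.2, the lowest being *C6* after sevoflurane. Each scaling multiplies a library by 1 number and so moves all genes alike; ratios between genes of a library do not depend on it.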
